A study of Rattus norvegicus with 18 samples.

Results

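The genes described here are those on which bone morphogenetic protein (BMP) and ciliary neurotrophic factor (CNTF) acted alike, and those on which they acted in opposite directions, in rat spinal cord material. For each of 6 title numbers the control array was subtracted from the BMP array and from the CNTF array, which gave 12 differences per probe set. A gene was chosen by the signs of those differences: the same sign in all 12, or one sign in all 6 BMP differences and the other sign in all 6 CNTF differences. Of 14217 named genes, 921 were selected on this rule. There were 430 genes higher with both factors, 364 lower with both, 62 higher with BMP and lower with CNTF, and 65 lower with BMP and higher with CNTF.

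The 18 Affymetrix arrays comprised 6 controls, 6 arrays of material to which BMP had been added at 10 ng/mL and 6 with CNTF at 10 ng/mL, both with the time entry 4 d, read as 4 days. The labels of the controls give no time, so the effect of an addition and any difference in time or handling from the controls cannot be told apart, and this holds for every gene named as shared. All 18 descriptions open with the entry "14 NT", which is not interpreted here. The BMP family member, the age, sex and strain of the animals, the cell type and the culture are not stated, nor whether arrays of a group came from separate animals or cultures, so the spread between arrays may be partly technical. Each number from 1 to 6 occurs once per group, and deviations of same-numbered arrays from their group means correlated in every one of 18 pairs of arrays (r from 0.1215 to 0.4908), so the numbers were used as pairs. For control 2, however, a BMP array of another number correlated better than BMP 2 (r = 0.1215). In bulk RNA, fewer cells of a type and less RNA per cell cannot be told apart.

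BMPs are secreted ligands of the TGF-beta family that act through receptor serine kinases and SMAD transcription factors. CNTF is a cytokine of the interleukin-6 family that acts through gp130, JAK kinases and STAT3. In the developing spinal cord both are known to favour astrocyte over neuron formation, and BMP is known to oppose the formation of oligodendrocytes, the myelinating glia, while CNTF is known to support their survival.

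Levels are log2(intensity + 116.655), where 116.655 is the 20th percentile of the deposited table, and differences are on the same scale. Fold values taken from them are too small for dim genes. On this scale the table's median lies at 9.75. A gene is represented by its brightest probe set. The values that chose the genes, BMP minus control and CNTF minus control, are given as descriptions without a test, and both share the same 6 control arrays. Noise in a control array moves both differences the same way, so the rule takes in shared genes more readily than opposite ones. The difference BMP minus CNTF was tested only for the genes that moved the same way, because the choice of the opposite genes already fixes its sign.

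Levels of cell type markers in the controls were set beside those of all named genes. In the controls, 17 of 21 astrocyte markers, 11 of 11 precursor markers, 13 of 18 oligodendrocyte and myelin markers and 12 of 20 neuron markers reached the median of the table. Of 16 microglia and macrophage markers and of 10 endothelial markers, 0 did. Over all named genes 8799 of 14217 did, a share close to that of the neuron markers. Of 4 genes often used to report on these pathways, Socs3, Stat3, Id1 and Id3, 0 were members. Socs3, the feedback inhibitor of STAT3 signalling, was 3.17 higher with CNTF and 0.17 higher with BMP, and Stat3 itself was 1.11 and 0.26 higher. Id1, a SMAD target that encodes an inhibitor of helix-loop-helix factors, differed from control by -0.50 on average with BMP (from -1.68 to 0.07) and by -0.52 with CNTF, and Id3 differed by -0.21 and -0.16.

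Over all 31042 probe sets the rule took in 752 higher (2.42%) and 665 lower (2.14%) with both factors, 121 higher with BMP and lower with CNTF (0.39%), and 109 of the reverse (0.351%). Over genes these shares were 3.02% for the 430 higher genes, 2.56% for the 364 lower genes, 0.436% for the 62 and 0.457% for the 65. With each array centred on its own median, 501 probe sets were higher and 1236 lower with both factors, so that the share of higher ones fell from 53.1% to 28.8%. Centring moved the median over all genes from 0.01 to -0.09 for BMP and from 0.00 to -0.04 for CNTF, and changes are given below relative to the deposited scale. limma called 1164 genes higher (8.19%) and 937 lower (6.59%) in the mean of both factors against control. Among them were 408 of the 430 higher and 322 of the 364 lower genes, counts from which nothing is read because the rule used the same contrast.

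The 430 higher genes had a median difference of 0.61 with BMP and 0.54 with CNTF, beside 0.01 and 0.00 over all genes. Both differences were at least 0.5 in 197 of them, at least 1 in 63 and at least 2 in 11. The medians of the 364 lower genes were nearer to 0, at -0.41 and -0.30. Of these genes, 67 were at least 0.5 lower with both factors and 9 at least 1 lower. BMP gave the larger difference in size in 270 of the 430 (62.8%) and in 270 of the 364 (74.2%), beside 8367 of all 14217 genes (58.9%). The opposite genes had medians of 0.52 and -0.41 (BMP higher) and of -0.53 and 0.41 (BMP lower). Across numbers, the median BMP difference of the higher genes was 0.80, 0.77 and 0.60 at numbers 1 to 3 and 0.49, 0.45 and 0.45 at numbers 4 to 6, whereas the CNTF median lay between 0.42 and 0.57 throughout.

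**Figure D1:**
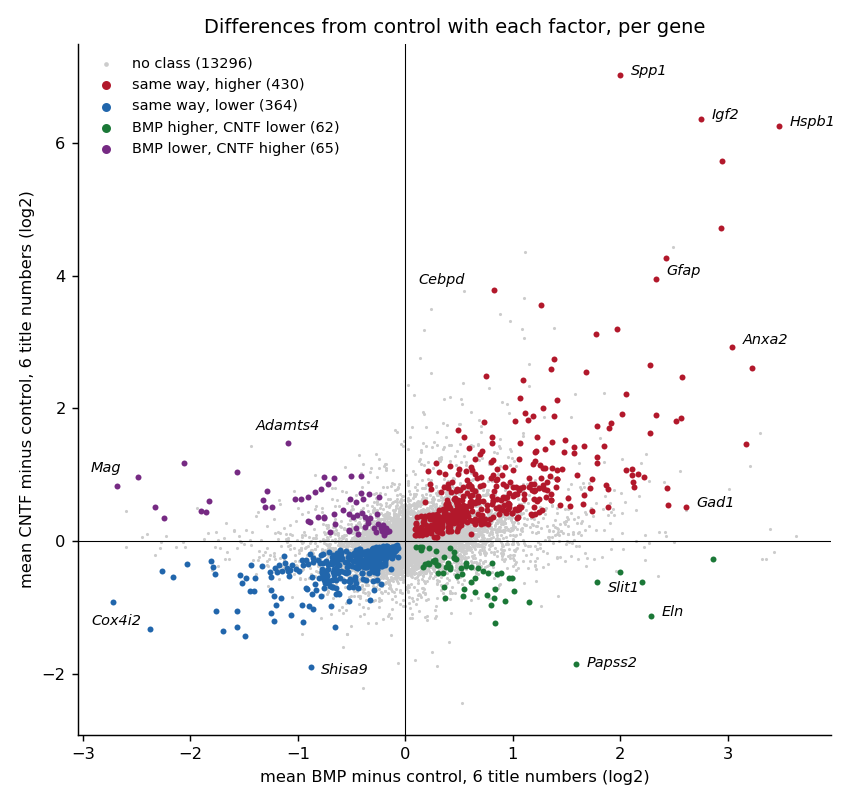
Mean BMP minus control (horizontal) against mean CNTF minus control (vertical), in log2 over 6 title numbers, for each of 14217 genes; grey points belong to no class and coloured points are the 4 classes chosen by the signs of the 12 differences. The 430 higher genes reach 7.02 with CNTF (Spp1), and the 62 and 65 opposite genes fill the remaining quadrants. Both axes share the same 6 controls.

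A stricter reading, which ignores the numbers, asks for every BMP array and every CNTF array to lie on the same side of all 6 controls. By this reading 62 probe sets were higher with both factors, 28 lower, 6 higher with BMP and lower with CNTF, and 1 the reverse. They stood for 35, 16, 4 and 1 genes. Hspb1, H19, Crym, Anxa2, Igf2, Matn2, Ablim1, Fn1 and Nefl were among the 35, Slc6a9, Kcnip3 and Cspg5 among the 16, and Syndig1 among the 4. The 1 gene lower with BMP and higher with CNTF in this sense, Zcchc14, was singled out after its values were seen. The edge of the rule itself is sharp only in sign. Inside it, the smallest of the 12 differences was 0.00051 for P2rx4 among the higher genes and 0.00035 in size for Gstt2 among the lower ones. For Grin3a and Fnta among the opposite genes it was 0.00021 and 2.1e-05. Outside it, 581 genes were higher and 568 lower in 11 of 12 differences. Ifitm3, an interferon-induced membrane protein, averaged 2.49 with BMP and 4.43 with CNTF but had 1 BMP difference of -0.33. Clu (clusterin) averaged 1.85 and 2.24 with a lowest difference of -0.09, Scg2 (a granin) 3.30 and 1.63 with a lowest of -0.27, and Gch1 1.58 and 2.23 with a lowest of -0.07. On the lower side, Rlbp1, Tlcd1, Adcy8 and Grm3 averaged from -0.69 to -0.79 with BMP and from -0.80 to -1.15 with CNTF, with highest BMP differences of 0.15 to 0.42.

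Promoter sequence was read for genes that carry the patterns below. RefSeq promoters (GRCr8, 250 bases before to 50 after the start site) were matched for 345 of the 430, 315 of the 364, 49 of the 62 and 56 of the 65 genes. The first is that of Hes5, a Notch effector that was lower with both factors. It lies at chr5:170804327-170804626 (+ strand), and capitals mark the 2 matches to TGGGAA on either strand, the core bound by the Notch partner RBPJ, at -242 and -98 from the start site. This motif was added after the values were seen.
Hes5: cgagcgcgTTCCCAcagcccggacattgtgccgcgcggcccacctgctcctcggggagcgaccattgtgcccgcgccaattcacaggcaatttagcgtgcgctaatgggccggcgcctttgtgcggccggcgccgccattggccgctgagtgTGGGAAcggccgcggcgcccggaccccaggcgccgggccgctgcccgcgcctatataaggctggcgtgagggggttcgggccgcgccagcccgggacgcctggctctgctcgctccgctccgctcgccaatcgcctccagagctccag
The second is that of Anxa2 (annexin A2), higher with both factors, at chr8:78986002-78986301 (+ strand). Capitals mark a match at -123 to TGANTCA, the AP-1 type motif.
Anxa2: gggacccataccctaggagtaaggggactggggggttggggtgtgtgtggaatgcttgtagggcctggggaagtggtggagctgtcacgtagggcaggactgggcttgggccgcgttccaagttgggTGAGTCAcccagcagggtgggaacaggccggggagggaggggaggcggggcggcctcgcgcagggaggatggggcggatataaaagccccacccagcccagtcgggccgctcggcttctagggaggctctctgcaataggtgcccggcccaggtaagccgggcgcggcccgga
The third is that of Smad9, which encodes a BMP receptor SMAD and was higher with BMP and lower with CNTF, at chr2:141106418-141106717 (+ strand). Capitals mark a match at -15 to GGCGCC, a GC-rich motif of BMP SMADs.
Smad9: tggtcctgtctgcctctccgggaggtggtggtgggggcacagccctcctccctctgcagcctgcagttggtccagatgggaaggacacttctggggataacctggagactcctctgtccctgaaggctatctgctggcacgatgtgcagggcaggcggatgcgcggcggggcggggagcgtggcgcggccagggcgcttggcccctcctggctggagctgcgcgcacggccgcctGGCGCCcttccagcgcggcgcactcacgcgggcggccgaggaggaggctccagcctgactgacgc
The last is that of Adamts4, a proteoglycan-cleaving protease that was lower with BMP and higher with CNTF, at chr13:86202761-86203060 (+ strand). Capitals mark a match at -121 to TTCNNNGAA, the STAT dimer motif.
Adamts4: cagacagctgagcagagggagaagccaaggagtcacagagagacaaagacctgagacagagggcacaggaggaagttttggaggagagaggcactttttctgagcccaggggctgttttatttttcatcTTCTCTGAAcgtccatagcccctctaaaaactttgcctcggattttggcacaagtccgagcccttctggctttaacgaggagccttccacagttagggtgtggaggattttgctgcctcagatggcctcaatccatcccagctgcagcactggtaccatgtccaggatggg
These matches are descriptions of letters, not of binding. TTCNNNGAA stood in 7.83% of the promoters of the higher genes and in 5.71% of those of the lower genes. It stood in 2 of 56 (3.57%) of the class of Adamts4 and in 6.12% of the reverse class, beside 6.99% over the 11700 matched genes and 8.68% over all 27457 promoters. TGANTCA stood in 5.22% and 6.98%, beside 5.43% and 7.33%. TGGGAA stood in 19.1% and 20.3%, beside 23.0% and 25.1%. The promoters of Nrarp and Dll3, the other Notch genes lower with both factors, held 0 matches to it. Those of Anxa2 and Smad9 held 1 each, not marked above. GGCGCC stood in 17 of 49 promoters (34.7%) of the genes higher with BMP and lower with CNTF and in 13 of 56 (23.2%) of the reverse class, beside 19.6% over the matched genes and 11.8% over all promoters. In the shared classes it stood in 16.8% of the promoters of the higher genes and in 24.1% of those of the lower genes. The Hes5 promoter held 4 matches to GGCGCC, not marked above. The GC content of the 4 promoters ranged from 52.3% in Adamts4 to 72.7% in Hes5.

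Of 21 astrocyte markers, Gfap, Aqp4 and Sparcl1 were higher with both factors and 0 were lower with both. Gfap, the intermediate filament of astrocytes, lay at 8.39, 12.62 and 14.89 in the controls (lowest, median and highest of 6 arrays), at 13.56, 14.90 and 15.43 with BMP and at 15.78, 16.40 and 16.53 with CNTF. Every CNTF array was above every control and every BMP array, while BMP and controls overlapped. The mean differences were 2.33 with BMP and 3.96 with CNTF. BMP minus CNTF, at -1.63 ± 0.62 (moderated SE), did not pass the test (limma adjusted p = 0.0957), although it was below 0 in 6 of 6 pairs. Aqp4, the water channel of astrocyte endfeet, lay at 9.65, 12.74 and 14.27 in the controls, at 13.64, 14.90 and 15.32 with BMP and at 12.30, 14.80 and 15.15 with CNTF. Its differences of 2.33 and 1.91 were not separated by the test of BMP minus CNTF (0.42 ± 0.26, limma adjusted p = 0.334), and its other 2 probe sets were in the same class, with 1.26 and 2.35 for BMP and 0.92 and 1.86 for CNTF. Control array 1 was the lowest control for both genes, at 8.39 and 9.65. Sparcl1, a secreted matrix protein of astrocytes, was higher by 0.62 and 0.79. The list of 21 had medians of 0.35 with BMP and -0.03 with CNTF, beside 0.01 and 0.00 over all genes, and in 6 of 6 pairs 5 of its markers were higher and 1 lower with BMP, and 7 higher and 2 lower with CNTF. Over all genes, 10.9% were higher and 10.1% lower with BMP in 6 of 6 pairs, and 8.85% were higher and 8.45% lower with CNTF.

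Of 26 reactive astrocyte genes, 6 were higher with both factors and 0 lower (medians 0.57 and 0.85). Hspb1, a small heat shock protein, had the largest smaller-of-both difference of all genes. Its levels were 8.28, 9.01 and 11.52 in the controls, 11.59, 12.36 and 14.95 with BMP and 14.45, 16.02 and 16.33 with CNTF. Both treated groups lay above all controls, by 3.48 (11.1-fold) and 6.26 (76.7-fold) on average. Spp1, the secreted phosphoprotein osteopontin, lay at 8.01, 9.34 and 11.16 in the controls, at 9.75, 12.13 and 12.46 with BMP and at 16.40, 16.59 and 16.88 with CNTF. CNTF arrays stood clear of both other groups, and BMP and controls overlapped. The differences were 2.0 and 7.02. The sphingosine phosphate receptor S1pr3 was higher by 1.77 and 3.13, the hyaluronan receptor Cd44 by 1.38 and 1.88, and the interferon-inducible GTPase Gbp2 by 1.06 and 1.25. Cd14, the lipopolysaccharide co-receptor, which macrophages also express, was the sixth, by 0.81 and 1.48. The mean levels of Gbp2 and Cd14 lay below the table's median in every group. Of 16 microglia and macrophage markers, 0 were members, and their mean level ranged from 7.54 to 7.88 over control arrays, from 7.65 to 7.85 with BMP and from 7.57 to 7.89 with CNTF.

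Of 10 measured annexins, which bind membranes in a calcium-dependent manner, 5 were higher with both factors and 0 lower, and 6 of the 10 reached the table's median in a group. The families in this paragraph were put together from gene symbols after the values were seen. All 10 had means above control with both factors, as they did with quantile-normalized arrays, while with median-centred arrays 10 did with BMP and 9 with CNTF. The 5 members, in the same class under both scalings, were Anxa2, Anxa4, Anxa5, Anxa7 and Anxa11. Anxa2 lay at 9.53, 10.52 and 11.99 in the controls, at 12.61, 13.65 and 15.03 with BMP and at 12.41, 13.59 and 14.36 with CNTF. Neither treated group overlapped the controls, and the treated groups overlapped each other. Its differences were 3.04 and 2.92 (8.20-fold and 7.57-fold), and BMP minus CNTF was 0.12 ± 0.47 (limma adjusted p = 0.916). The other 4 differed by 0.90 to 1.57 with BMP and by 0.56 to 1.42 with CNTF. Of 14 S100 proteins, small calcium sensors some of which bind annexins, S100a11, S100a4 and S100a6 were members. S100a11, a partner of annexins, was higher by 3.22 and 2.60, S100a4 by 1.28 and 2.01 and S100a6 by 1.28 and 1.11. Another member, S100a5, lay below the table's median in every group, at 7.21 in the median control, and differed by -0.19 and -0.09. Of 8 measured ligands and receptors of the GDNF family, 2 were higher with both factors, and 4 of the 8 reached the table's median in a group. The 2 members were the receptor kinase Ret and the neurturin gene Nrtn, a ligand that signals through Ret. Ret lay at 7.16, 8.73 and 10.36 in the controls, 8.58, 12.14 and 12.68 with BMP and 8.04, 11.18 and 12.08 with CNTF, overlapping in range. The mean differences were 2.57 and 1.86 for Ret and 2.27 and 1.63 for Nrtn.

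The remaining genes with the largest shared differences included the imprinted Igf2 and H19. Igf2, an insulin-like growth factor, lay at 9.0, 9.20 and 9.81 in the controls, at 10.01, 11.60 and 14.37 with BMP and at 14.97, 15.62 and 16.25 with CNTF, with no overlap between any of the groups. Its mean differences were 2.75 and 6.36 on the brightest probe set. The other 3 probe sets of Igf2, at control levels of 7.23 to 7.89, differed by -0.22 to -0.10 with BMP and by -0.15 to 0.16 with CNTF. H19, the non-coding RNA of the same locus, differed by 2.94 and 5.73, and Crym, a cytosolic thyroid hormone-binding protein, by 2.94 and 4.72. Each of these 3 genes was clear of the controls with both factors. Tmem176b, a membrane protein, was higher by 2.42 and 4.27, the myosin light chain kinase Mylk by 2.58 and 2.48, and the tubulin Tubb6 by 2.01 and 1.92. The actin-binding Ablim1 differed by 2.05 and 2.21, and the matrix proteins Matn2 (matrilin-2) and Mgp (matrix Gla protein) by 2.27 and 2.66 and by 1.97 and 3.19.

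**Figure D2:**
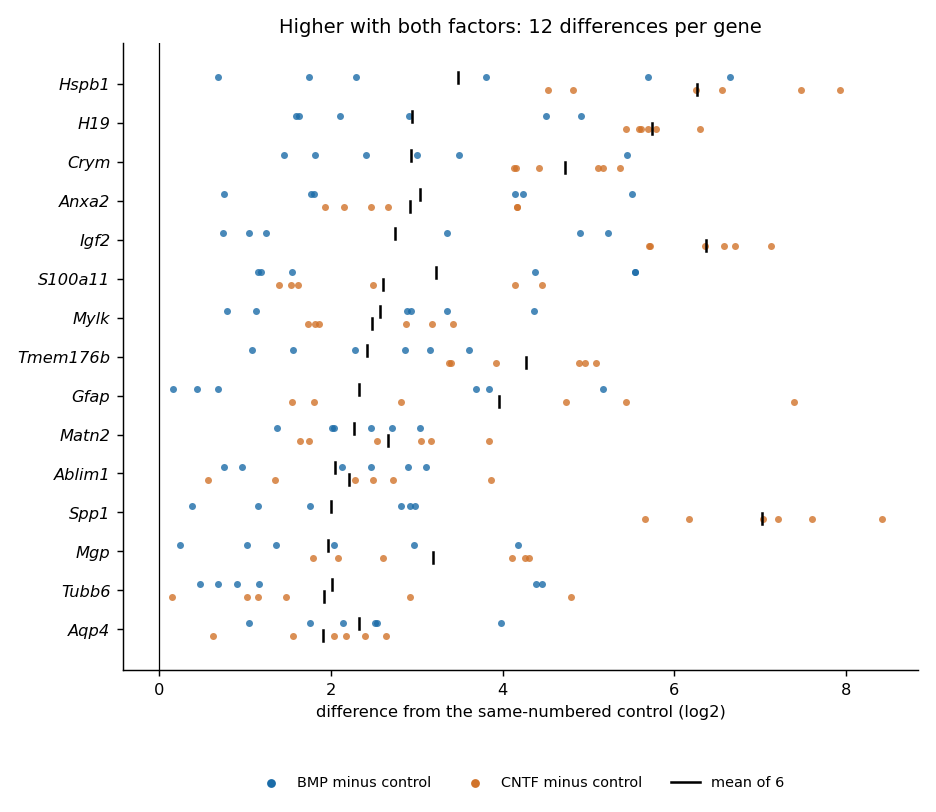
The 12 differences from the same-numbered control (log2) of the 15 genes with the largest shared difference among those higher with both factors; blue points are BMP, orange points CNTF, and black bars the mean of 6. All points lie above 0 because the genes were chosen that way; for Spp1, Igf2, H19 and Hspb1 the CNTF points lie farther right (means 7.02, 6.36, 5.73 and 6.26), and for Anxa2 and Mylk the colours mix.

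Matrix and guidance genes contributed members to both kinds of pattern. Of 24 extracellular matrix genes, 5 were higher with both factors (Spp1, Mgp, Fn1, Col5a2 and Col4a2), 0 were lower with both, and 1, Eln, was opposite (medians 1.20 and 0.28). Fn1 (fibronectin) lay at 11.65, 12.68 and 13.16 in the controls, at 13.39, 13.84 and 14.63 with BMP and at 13.25, 14.08 and 14.61 with CNTF, so that neither treated group overlapped the controls. It was higher by 1.36 and 1.49, and BMP minus CNTF was -0.13 ± 0.18 (limma adjusted p = 0.726). Of 15 fibroblast and smooth muscle markers 0 were members, and 5 were higher with BMP in 6 of 6 pairs. The mean level of that list ranged from 8.95 to 9.70 over control arrays, from 9.62 to 11.09 with BMP and from 8.89 to 10.15 with CNTF. Its part in the matrix result was not tested. Of 23 axon guidance genes, the secreted Sema3c (2.52 and 1.82) and Slit2 (1.04 and 0.47) were higher with both factors. Of 20 neuron markers, Stmn2 (1.17 and 0.86), Gad1 and Nefl (0.95 and 0.48) were members, and all 3 were higher. The list had medians of 0.41 with BMP and 0.01 with CNTF, and in 6 of 6 pairs 6 of its markers were higher and 2 lower with BMP, and 4 higher and 2 lower with CNTF.

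The signalling lists held some shared genes. Over all genes, 3.02% were higher and 2.56% lower with both factors. Of 21 gp130-STAT3 genes, Cebpd, Cebpb and Il6st were higher with both factors. Cebpd, a C/EBP family factor induced by STAT3, lay at 7.91, 8.47 and 8.79 in the controls, at 8.58, 9.27 and 9.59 with BMP and at 11.76, 12.25 and 12.47 with CNTF. The CNTF arrays were far above both other groups, and BMP overlapped the controls. Cebpb differed by 0.65 and 1.24 and Il6st, which encodes gp130 itself, by 0.40 and 0.80. Of 19 BMP-SMAD genes, Bmper, an extracellular BMP-binding protein, was higher by 1.20 and 1.21, and Skil, a SMAD co-repressor, differed by -0.65 and -0.28. Irf9, a transcription factor of the interferon response, was higher by 0.39 and 0.62 and with Gbp2 made 2 members of 19 interferon genes. The mean levels of Bmper, Cebpb and Gbp2 lay below the table's median in every group. Among 26 growth and neurotrophic factors, Igf2 and Nrg1 (neuregulin-1, 1.10 and 0.64) were higher and Vegfa lower. Nrg1 lay below the table's median in every group. Its other probe sets were in no class, with differences of 0.02 to 1.05 with BMP and -0.17 to 0.37 with CNTF. Prom1 (prominin-1) was higher by 1.02 and 0.49. Aspa, an oligodendrocyte enzyme that cleaves N-acetylaspartate, was higher by 0.58 and 0.38, and the endothelial receptor Tek by 0.95 and 0.58 at levels below the table's median.

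Notch pathway genes had some of the largest negative differences shared by both factors. In this pathway, receptors cut at the membrane turn on repressors such as Hes5. Of 18 Notch genes, 3 were lower with both factors and 0 higher (medians -0.17 and -0.17). Nrarp, a Notch-induced feedback inhibitor, lay at 12.79, 13.17 and 14.05 in the controls, at 10.83, 11.72 and 12.30 with BMP and at 11.22, 11.75 and 13.29 with CNTF. All BMP arrays were below all controls, and CNTF overlapped them. The differences were -1.69 and -1.35, and its other 2 probe sets were in the same class. Hes5, whose promoter is shown above, lay at 12.53, 13.19 and 14.09 in the controls, at 10.38, 11.56 and 12.79 with BMP and at 11.11, 11.35 and 13.43 with CNTF. The groups overlapped in range, yet each treated array was below its own control, with mean differences of -1.57 and -1.29. A second Hes5 probe set with a control level of 7.85, below the table's median, differed by 0.23 and 0.33. Dll3, a Notch ligand that acts within the cell, differed by -0.72 and -0.62. BMP minus CNTF passed the test for 0 of these 3 genes (limma adjusted p = 0.205, 0.498 and 0.702, unadjusted p under 0.05 in 0), with -0.35 ± 0.17, -0.27 ± 0.22 and -0.10 ± 0.13. Hes5 with Sox3 (-0.95 and -1.21), a factor of neural progenitors, and Fut4 (-0.74 and -0.30), which makes the LeX carbohydrate, gave 3 lower members of 12 neural stem and radial glia markers, beside Prom1 as the 1 higher.

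Of 11 oligodendrocyte precursor markers, 7 were lower with both factors (Pdgfra, Olig2, Olig1, Cspg4, Cspg5, Ptprz1 and Sox6), 0 were higher with both and 1, Lhfpl3, was opposite; the list's medians were -1.26 and -0.29. With BMP 10 were lower in 6 of 6 pairs, and with CNTF 7 were lower and 2 higher. Pdgfra, the PDGF receptor of precursors, lay at 14.12, 14.78 and 15.22 in the controls, at 11.89, 12.88 and 14.32 with BMP and at 13.77, 14.54 and 14.83 with CNTF. Both treated groups overlapped the controls in range, and the CNTF differences were small, from -0.46 to -0.14. Olig2, the transcription factor of the lineage, lay at 10.85, 12.32 and 12.70 in the controls, 8.22, 9.81 and 11.48 with BMP and 10.60, 11.63 and 12.56 with CNTF, with mean differences of -2.16 and -0.54. For both genes BMP lay below CNTF in 6 of 6 pairs, with a difference of -1.51 ± 0.25 for Pdgfra (limma adjusted p = 0.000666) and of -1.62 ± 0.31 for Olig2 (limma adjusted p = 0.00199). The proteoglycan Cspg4 (NG2) differed by -1.40 and -0.56 and Cspg5 (neuroglycan C) by -0.83 and -0.74, and every treated Cspg5 array was below every control. The mean level of the 11 markers ranged from 13.29 to 13.92 over control arrays, from 11.29 to 13.29 with BMP and from 13.14 to 13.81 with CNTF. In BMP minus CNTF, 9 of the 11 were called lower, beside 8.81% of all genes. That count includes Lhfpl3, whose sign the rule had fixed, so it is a description only. Of 15 genes of chondroitin sulfate proteoglycans, which overlap this list, Cspg4, Cspg5, Ptprz1 (a receptor phosphatase, -1.09 and -0.44) and Papss1 were lower with both factors and Papss2 was opposite.

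Transporters and synaptic genes followed. Slc6a9, the glial glycine transporter, lay at 13.12, 13.48 and 13.87 in the controls, at 11.71, 12.11 and 12.85 with BMP and at 12.14, 12.43 and 12.64 with CNTF. No treated array reached the lowest control, and the other 2 probe sets of the gene were in the same class. Its differences were -1.25 and -1.07, those of Slc38a3, a glutamine transporter, -1.20 and -0.95, and those of Slc6a11, a GABA transporter, -0.53 and -0.69. These were the 3 members among 14 genes of glutamate uptake and ion transport (medians -0.39 and -0.24), and all 3 were lower. Of 17 synapse and growth cone genes, Sncb (beta-synuclein, -0.97 and -0.96) and Cplx2 (complexin-2, -0.30 and -0.31) were members, both lower. Among 13 SLITRK, LRFN and SHISA genes, grouped by symbol after the values were seen, 6 were lower with both factors (Shisa9, Shisa7, Slitrk1, Slitrk3, Lrfn1 and Lrfn2) and Shisa5, an endoplasmic reticulum protein, was higher. With median-centred arrays the 6 lower genes remained in their class and Shisa5 was in none.

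**Figure D3:**
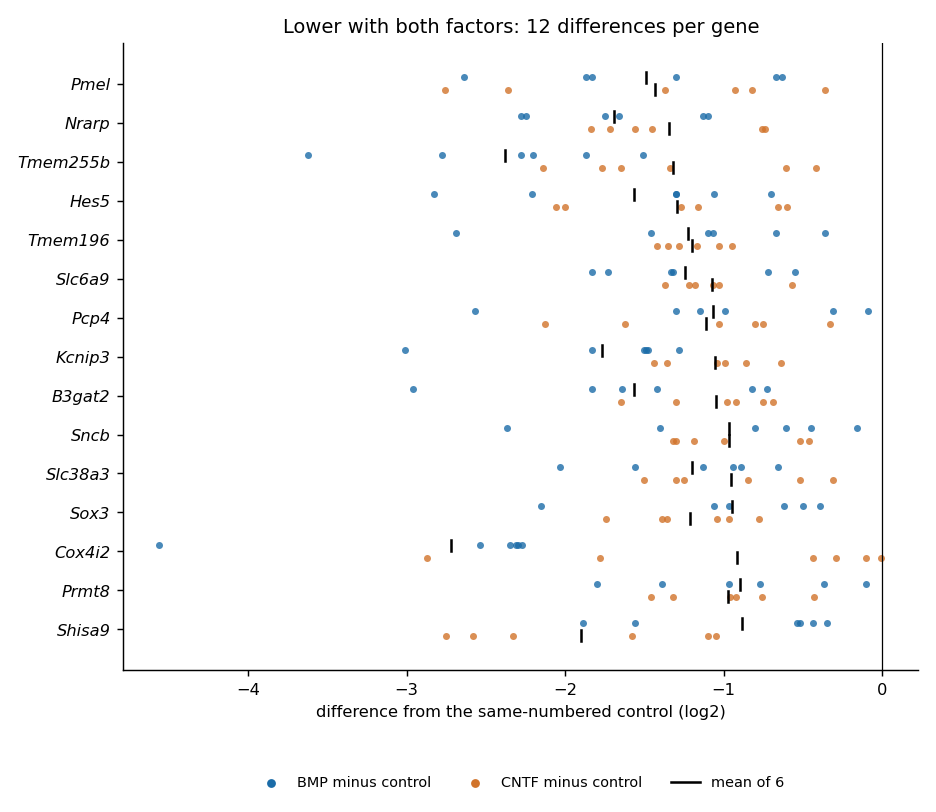
The 12 differences from the same-numbered control (log2) of the 15 genes with the largest shared difference among those lower with both factors; blue points are BMP, orange points CNTF, and black bars the mean of 6. All points lie below 0 because the genes were chosen that way; Cox4i2 has BMP points from -4.56 to -2.27 and CNTF points up to -0.01, and Shisa9 is the gene whose CNTF mean (-1.90) is farthest below its BMP mean (-0.88).

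The other genes with the largest shared negative differences were of mixed roles. Pmel, a melanosome protein, differed by -1.49 and -1.43, Tmem196 by -1.23 and -1.20, and the calmodulin-binding Pcp4 by -1.07 and -1.11. Kcnip3, a calcium-binding partner of potassium channels, lay at 11.59, 12.31 and 12.60 in the controls, 9.59, 10.61 and 11.10 with BMP and 10.95, 11.20 and 11.56 with CNTF, so that all 12 treated arrays were below all controls. B3gat2, a glucuronyltransferase, differed by -1.57 and -1.05, and Prmt8, a membrane-bound arginine methyltransferase, by -0.90 and -0.97.

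Sterol synthesis and glycolysis gave further shared members with small CNTF differences. Of 22 genes of cholesterol and fatty acid synthesis, 4 were lower with both factors and 0 higher (medians -0.73 and -0.31), while 20 were lower with BMP in 6 of 6 pairs and 4 with CNTF, beside 10.1% and 8.45% over all genes. Idi1, an isomerase early in the pathway, lay at 14.86, 15.01 and 15.17 in the controls, and 13.25, 14.05 and 14.61 with BMP, and its lowest and median CNTF arrays lay at 14.37 and 14.65. BMP arrays were below all controls and the highest CNTF array was not. Cyp51 differed by -0.68 and -0.34, Sc5d by -0.67 and -0.33 and Acly, which makes cytosolic acetyl-CoA, by -0.37 and -0.16. Of 18 glycolysis and hypoxia genes, 5 were lower with both factors and 0 higher (medians -0.54 and -0.17). Vegfa, a hypoxia-induced growth factor, lay at 14.03, 14.42 and 14.82 in the controls, 12.53, 13.45 and 13.64 with BMP and 13.05, 13.92 and 14.21 with CNTF, and differed by -1.25 and -0.73. The glycolytic or regulatory enzymes Pdk1, Tpi1, Aldoa and Ldha differed by -0.77 to -0.31 with BMP and by -0.47 to -0.17 with CNTF.

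Respiratory chain and ATP synthase subunits were also grouped by symbol after the values were seen. Of 76 measured, 14 were lower with both factors and 0 higher, with medians of -0.12 and -0.08, and 4 had means above control with BMP and 9 with CNTF. With quantile-normalized arrays 10 were members and with median-centred arrays 29, again with 0 higher. Apart from Cox4i2 the differences of the 14 members were between -0.40 and -0.08. Array medians differed from the same-numbered controls in the other direction with BMP, by 0.043 to 0.143, and by -0.014 to 0.068 with CNTF. The size of the subunit differences depended on the scaling. Their medians were -0.06 and -0.05 with quantile normalization and -0.21 and -0.11 with median centring. Sdhb (-0.19 and -0.08) was the 1 member of the list of 16 oxidative phosphorylation genes, and Rps3 (-0.18 and -0.12) the 1 member of 11 ribosomal proteins. Cox4i2, a cytochrome oxidase isoform induced by low oxygen, moved far more. It lay at 10.55, 11.41 and 12.10 in the controls, at 7.04, 8.66 and 9.56 with BMP and at 8.73, 10.75 and 11.67 with CNTF.

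The lists that gave 0 members were cell cycle and DNA replication (29 genes), cyclin-dependent kinase inhibitors (12), FGF-MAPK feedback (14), stress and unfolded protein response (16), fibroblast and smooth muscle markers and microglia markers. Of all 14217 genes 921 were members, so nothing is read from 0 in lists this short. The cell cycle list had medians of 0.53 with BMP and 0.23 with CNTF, and its mean level ranged from 9.98 to 13.5 over control arrays. Mki67, a proliferation marker, varied more within groups than between them, from 9.24 to 14.37 in the controls, 11.59 to 14.06 with BMP and 11.87 to 14.22 with CNTF.

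Whether the 2 factors moved a shared gene by the same amount was tested as BMP minus CNTF with limma, blocked by number and adjusted over all 31042 probe sets. Over all genes, 1331 were called higher (9.36%) and 1252 lower (8.81%) with BMP than with CNTF. Of the 430 higher genes 109 were called (25.3%), 68 with BMP above CNTF and 41 with BMP below. Of the 364 lower genes 93 were called (25.5%), 9 with BMP above CNTF and 84 with BMP below. Over all genes 18.2% were called. Without the pairing by number, 66 in place of 202 of these genes were called.

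Among genes higher with both factors, CNTF exceeded BMP most for Spp1 (BMP minus CNTF -5.02 ± 0.34, limma adjusted p = 2.11e-07), Igf2 (-3.62 ± 0.50, adjusted p = 0.000158), Cebpd (-2.96 ± 0.16, adjusted p = 5.12e-08), H19 (-2.79 ± 0.42, adjusted p = 0.000324) and Hspb1 (-2.78 ± 0.60, adjusted p = 0.00512). Each was lower with BMP than with CNTF in 6 of 6 pairs. Tmem176b (-1.85 ± 0.26), Crym (-1.79 ± 0.37), S100a4 (-0.74 ± 0.16) and Il6st (-0.40 ± 0.09) were also called lower with BMP (limma adjusted p = 0.000154, 0.00385, 0.00585 and 0.00811). In the other direction stood Gad1, the enzyme that makes GABA. Its levels were 7.57, 8.30 and 8.46 in the controls, 9.0, 10.96 and 12.08 with BMP and 7.83, 8.58 and 9.71 with CNTF. BMP arrays were all above the controls and CNTF arrays overlapped them, and BMP exceeded CNTF by 2.09 ± 0.32 (limma adjusted p = 0.000345, 6 of 6 pairs). The RNA-binding protein gene Rbm24 (1.90 ± 0.19, adjusted p = 9.75e-06), the non-coding Snhg11 (1.37 ± 0.16, adjusted p = 3.93e-05) and the tachykinin precursor Tac1 (1.31 ± 0.26, adjusted p = 0.00312) were also higher with BMP in the limma test, in 6, 6 and 5 of 6 pairs. Tropomyosin Tpm2 (1.63 ± 0.49, limma adjusted p = 0.0365) lost its call in 13 alternatives. Nefl (0.47 ± 0.13, limma adjusted p = 0.0264) lost its call in 13 as well, while Prom1 (0.54 ± 0.09, adjusted p = 0.000601) lost it only without the pairing.

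Among genes lower with both factors, BMP lay below CNTF for Cox4i2 (-1.81 ± 0.32, limma adjusted p = 0.00107), Kcnip3 (-0.71 ± 0.17, adjusted p = 0.00871), Cspg4 (-0.84 ± 0.13, adjusted p = 0.000501), Idi1 (-0.70 ± 0.14, adjusted p = 0.00247), Acly (-0.21 ± 0.04, adjusted p = 0.00304) and Vegfa (-0.52 ± 0.11, adjusted p = 0.00433), in 6 of 6 pairs each. Tmem255b differed by -2.38 and -1.32, and its call (-1.05 ± 0.28, limma adjusted p = 0.0198) was lost in 8 alternatives, with adjusted p up to 0.204. The call for Sc5d (-0.35 ± 0.10, limma adjusted p = 0.0268) was lost in 12 and that for Aldoa (-0.15 ± 0.05, adjusted p = 0.0412) in 17. Shisa9, a regulator of AMPA receptors, ran the other way: BMP lay above CNTF by 1.02 ± 0.23 (limma adjusted p = 0.00697) in 6 of 6 pairs. For Slc6a9 (-0.17 ± 0.16) and Cspg5 (-0.09 ± 0.13) the test did not separate the factors (limma adjusted p = 0.573 and 0.734). Without the pairing, the calls for Kcnip3, Cspg4, Acly, Vegfa and Shisa9, and for S100a4 and Il6st among the higher genes, were lost.

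**Figure D4:**
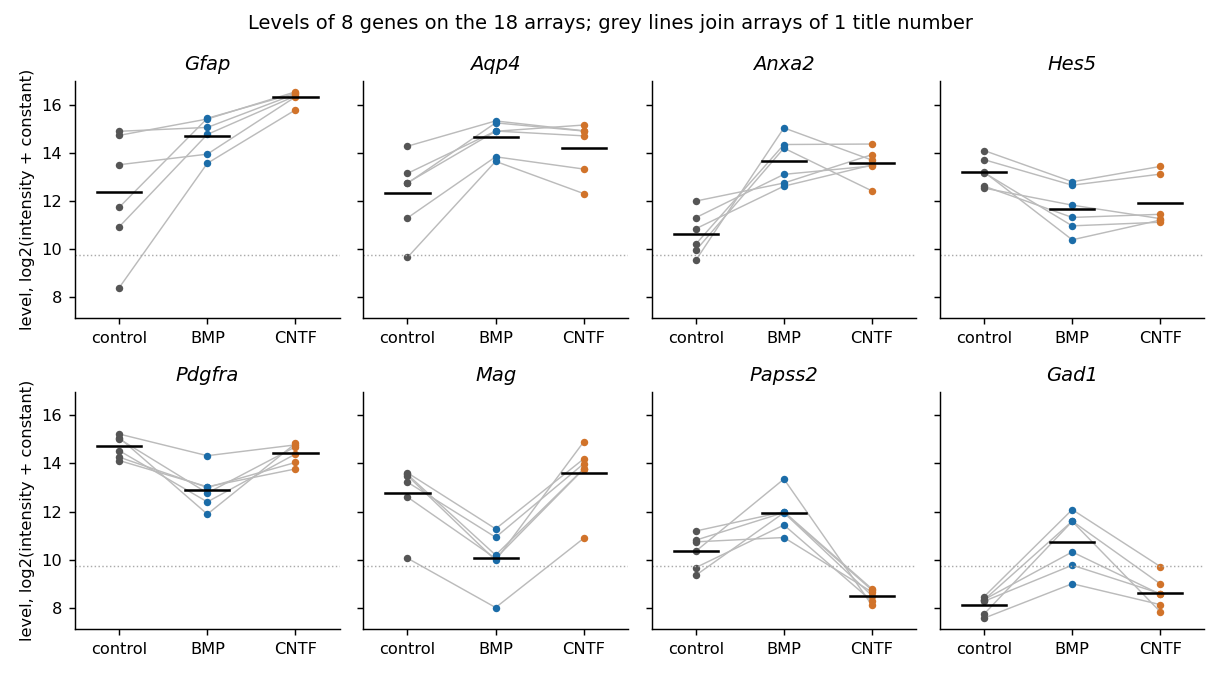
Levels, log2(intensity + constant), of 8 genes on all 18 arrays; points are arrays, black bars the mean of 6, grey lines join the 3 arrays of a title number, and the dotted line is the median of the table (9.75). Gfap, Aqp4 and Anxa2 are higher and Hes5 and Pdgfra lower with both factors, Mag and Papss2 go in opposite directions, and Gad1 is far higher with BMP (median 10.96) than with CNTF (8.58).

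Genes that the factors moved in opposite directions were fewer. The shared controls favour equal signs, so nothing is read from this imbalance. The 62 that were higher with BMP and lower with CNTF were headed by Papss2, which makes the sulfate donor for proteoglycans. It lay at 9.35, 10.55 and 11.19 in the controls, at 10.92, 11.96 and 13.35 with BMP and at 8.10, 8.57 and 8.78 with CNTF. CNTF arrays were below all others, and BMP overlapped the controls. The differences were 1.58 and -1.85, and a second probe set gave 0.99 and -1.44. Eln (elastin) lay at 8.67, 9.86 and 11.08 in the controls, 10.78, 12.18 and 13.87 with BMP and 7.11, 9.09 and 9.41 with CNTF. BMP and CNTF arrays did not overlap, and the differences were 2.29 and -1.13. Smad9, shown above, differed by 1.15 and -0.91 and was the opposite member of the BMP-SMAD list. Syndig1, a synaptic membrane protein, lay at 9.64, 9.84 and 10.07 in the controls, at 10.53, 10.66 and 11.18 with BMP and at 8.48, 8.97 and 9.34 with CNTF. None of its 3 groups overlapped. Olfm3 (an olfactomedin, 0.83 and -1.23), the phosphodiesterase Pde2a (0.82 and -0.86), the arginase Arg1 (0.80 and -0.96) and Mro (0.76 and -0.80) completed the 8 largest.

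Other members of the fixed lists in this class were Slit1, Efna5 and Ncam1. Slit1, a secreted axon guidance ligand, lay at 9.30, 10.43 and 10.63 in the controls, 11.17, 11.98 and 12.63 with BMP and 8.91, 9.66 and 9.79 with CNTF, a difference of 1.78 and -0.61. BMP arrays were above all controls, and CNTF arrays overlapped them. Its relative Slit2 was higher with both factors (above). Efna5, an ephrin ligand, differed by 0.97 and -0.55 and the adhesion molecule Ncam1 by 0.56 and -0.33. With Sema3c and Slit2, Slit1 and Efna5 made 4 members of the 23 axon guidance genes.

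The 65 genes lower with BMP and higher with CNTF held myelin genes. Of 18 oligodendrocyte and myelin markers, 4 were of this kind (Mag, Cldn11, Ugt8 and Mbp), 1 was higher with both factors (Aspa) and 0 were lower with both (medians -1.39 and 0.18). Mag, an adhesion protein of the inner myelin layer, lay at 10.06, 13.35 and 13.61 in the controls, at 8.01, 10.12 and 11.28 with BMP and at 10.89, 13.88 and 14.90 with CNTF. The ranges overlapped only through the arrays of number 1, which were the lowest of their group in all 3 groups. The differences were -2.68 and 0.84. Cldn11, the claudin of myelin tight junctions, differed by -2.49 and 0.97, and its second probe set was in the same class with -2.01 and 1.38. Ugt8, which makes the myelin lipid galactosylceramide, differed by -1.90 and 0.46. Mbp (myelin basic protein) lay at 13.68, 16.08 and 16.30 in the controls, 9.33, 14.15 and 14.95 with BMP and 14.65, 16.32 and 16.51 with CNTF. Its CNTF difference was small, 0.36 on average and 0.05 at the lowest, and its other 2 probe sets gave 0.52 and 0.72 with CNTF and -1.95 and -2.64 with BMP. Mbp, too, was lowest at number 1 in all 3 groups. The mean level of the 18 markers ranged from 10.69 to 12.20 over control arrays, from 9.31 to 11.17 with BMP and from 11.12 to 12.33 with CNTF.

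**Figure D5:**
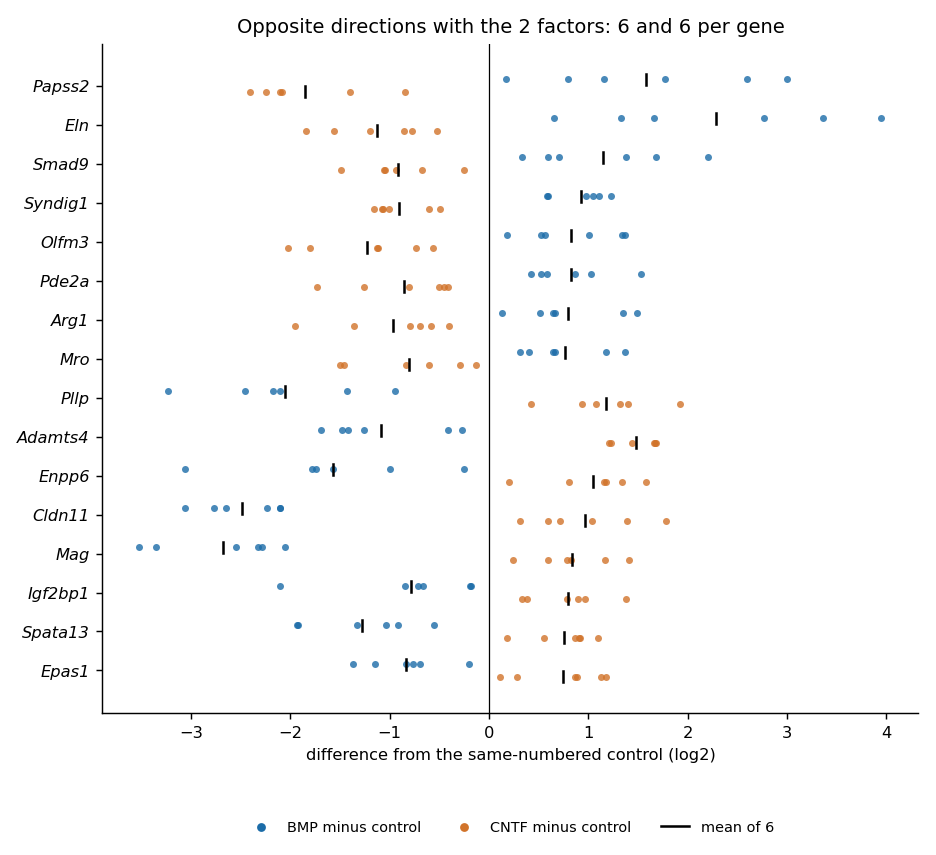
Differences from the same-numbered control (log2) of the 8 genes with the largest opposite differences in each direction; blue points are BMP, orange points CNTF, and black bars the mean of 6. The colours lie on opposite sides of 0 because the genes were chosen that way; the means span -2.68 (Mag) to 2.29 (Eln) with BMP and -1.85 (Papss2) to 1.48 (Adamts4) with CNTF.

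Among the other named genes of this class were genes of the same lineage and genes of other roles. Pllp (plasmolipin), a myelin membrane protein, lay at 9.42, 10.31 and 11.26 in the controls, 6.99, 8.58 and 9.46 with BMP and 10.73, 11.67 and 12.34 with CNTF. BMP and CNTF arrays did not overlap, and the differences were -2.06 and 1.18. Enpp6, a phosphodiesterase of newly formed oligodendrocytes, differed by -1.57 and 1.04, and Lhfpl3, the 1 opposite gene among the precursor markers, by -1.24 and 0.51. Adamts4 lay at 9.38, 10.94 and 11.31 in the controls, 8.97, 9.51 and 10.06 with BMP and 11.05, 12.46 and 12.75 with CNTF, a difference of -1.09 and 1.48. Epas1, which encodes the hypoxia-inducible factor HIF-2 alpha, differed by -0.84 and 0.74, the RNA-binding protein gene Igf2bp1 by -0.79 and 0.79, and the exchange factor gene Spata13 by -1.28 and 0.76. Bcl3, an NF-kappa-B cofactor and the opposite member of the gp130-STAT3 list, differed by -0.75 and 0.97. Its mean level lay below the table's median in every group. Its other probe sets were in no class, with -0.24 and -0.03 for BMP and 0.99 and 2.34 for CNTF.

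Where a member gene had more than 1 probe set, the sign of 1 summary difference was compared. For the shared classes it was the mean of both factors minus control. In the higher class 220 of 255 other probe sets had the same sign, as did 109 of the 114 that reached the table's median. In the lower class these counts were 185 of 218 and 128 of 138. For the opposite classes the sign of BMP minus CNTF was compared. The counts were 42 of 45 and 22 of 22 (BMP higher) and 41 of 47 and 25 of 26 (BMP lower). Fewer probe sets fell into the same class: 55, 54, 6 and 11 in the order given. A second Gad1 probe set counted as alike though its differences were 1.13 and -0.20. In 1 gene, Srprb, named for this after its values were seen, probe sets fell into more than 1 class.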

How the data were processed

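Total RNA of 18 samples was measured on single-channel Affymetrix arrays. The deposited values are linear probe set intensity values, 31099 per array; how the authors summarised and scaled them is not given in the sources used here. On every array the mean after trimming 2% at each end was 2500.7 to 2500.8, and array medians were 666.5 to 817.2. The deposited scaling was kept. Intensity has no count or depth, so the number of arrays limits the precision. After 57 control probe sets had been left out, 31042 were analysed as log2(intensity + 116.655). Of these, 20826 carried 1 gene symbol, 436 several and 9780 none, by the platform annotation matched to RefSeq; 20758 identifiers matched. Only probe sets with 1 symbol were used to name genes.

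Differences were taken per title number. limma 3.58.1 in R 4.3.3 fitted group means with the number as a block and an intensity trend, two-sided, with p-values adjusted by Benjamini-Hochberg across the whole set and a call at an adjusted p under 0.05. The pairing was taken from the numbers in the titles and checked by the correlation of deviations from group means, which was above 0.1 in all 18 same-numbered pairs of arrays. The same-numbered array was the best match within its group except for control 2 with BMP 2. The procedure was tested on simulated data.

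Named genes were the 15 with the largest smaller-of-both difference in each shared direction and the 8 in each opposite direction, among genes with a group mean at or above the table's median. To these were added up to 4 members per gene list, the 5 largest called BMP minus CNTF differences each way among shared genes, 4 genes per direction at 11 of 12 differences, and Gfap, Aqp4, Spp1, Id1, Id3, Socs3, Stat3, Pdgfra, Olig2, Mbp and Mki67. Members of the lists beyond these, and the families grouped by symbol, were named after their values were seen. The genes, lists and tests were all chosen with earlier results of these data known. Alternatives were other constants, exclusion of dim probe sets, quantile or median scaling, no block, no trend, and leaving out arrays.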

Additional observations from a re-analysis of the deposited data

Results flagged for a closer look

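On 28 occasions the most extreme of 6 arrays of a group stood far from its nearest neighbour (Dixon's ratio above its 95% critical value), over the 330 groups of 6 arrays of 110 named genes. Chance gives such a gap in about 1 in 20 groups. Values are log2 levels, with the nearest other array in parentheses. CNTF array 1 was the lowest of its group for Gfap, at 15.78 (16.32), for S100a11, at 10.47 (13.58), for Cebpb, at 8.68 (9.54), and for Eln, at 7.11 (8.57). The 3 arrays of number 1 were the lowest of their groups for Cldn11, at 11.31 (14.10) in the control, 8.54 with BMP and 13.09 (15.36) with CNTF. The same was seen for Mbp, at 13.68 (15.90), 9.33 (13.59) and 14.65 (16.23). For Mag it was seen in the control, at 10.06 (12.60), and with CNTF, at 10.89 (13.77).

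Number 6 was the highest of its group for Cspg4 with BMP, at 10.65 (9.60), and with CNTF, at 11.14 (10.41), and for Aspa in the control, at 11.53 (10.56), and with CNTF, at 11.55 (10.98). It was also the highest for Mylk in the control, at 11.42 (9.71), for Cyp51 in the control, at 15.85 (15.60), for Ugt8 with BMP, at 12.13 (10.99), for Rlbp1 with BMP, at 11.27 (10.29), and for Tac1 with CNTF, at 11.19 (9.12). Other low arrays were BMP 4 for Tmem176b, at 11.34 (12.55), and for Cebpd, at 8.58 (9.24). Control 3 was low for Kcnip3, at 11.59 (12.22), control 4 for Pde2a, at 10.22 (11.02), CNTF 4 for Slit1, at 8.91 (9.60), and CNTF 2 for Irf9, at 10.46 (10.84). BMP 2 was high for Mgp, at 13.10 (10.43).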

How the results depend on the processing

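The constants at the 5th and 40th percentile left all 4 classes as they were, since a constant cannot change a sign. Without the pairing by number (no block), the unpaired reading left 62, 28, 6 and 1 of the 752, 665, 121 and 109 probe sets. The limma calls fell without the block from 2040 higher and 1681 lower to 613 and 302 for the mean of both factors, from 2824 and 2352 to 1067 and 798 for BMP against control, from 1300 and 1049 to 492 and 229 for CNTF against control, and from 2536 and 2150 to 1005 and 929 for BMP against CNTF. Of the shared genes, 66 rather than 202 were called in that last comparison. With median-centred arrays, 501 probe sets were higher and 1236 lower with both factors, of which 497 and 659 were members on the deposited scale. The calls of lower probe sets were then 3165 for the mean of both factors and 4565 for BMP against control. With quantile normalization the classes held 688, 709, 115 and 116 probe sets, and 639, 586, 98 and 98 of them were members on the deposited scale.

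Leaving out arrays can only add members, as fewer signs are asked for: the classes then held 799 to 1052, 708 to 978, 133 to 192 and 113 to 190. The calls ranged over 1333 to 2100 higher and 956 to 1755 lower for the mean of both factors, 2049 to 2821 and 1559 to 2286 for BMP, 873 to 1414 and 548 to 1186 for CNTF and 1931 to 2567 and 1673 to 2145 for BMP against CNTF. The called shared genes ranged over 156 to 205.

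For the named genes, 0 of the processing alternatives turned a called or member value round. Other probe sets did so in 22 of 140 comparisons, nearly all dim. Against BMP these were Igf2 (-0.10, -0.22 and -0.14), Tubb6 (0.00), Hes5 (0.23), Cebpd (-0.12), Ugt8 (0.07) and Ncam1 (-0.01, on a bright probe set). Against CNTF these were Igf2 (-0.15 and -0.02), Ablim1 (-0.16), Hes5 (0.33), Smad9 (0.05), Ugt8 (-0.01), Gad1 (-0.20), Nrg1 (-0.14 and -0.17), Snhg11 (-0.03 and -0.01), Tpm2 (-0.27) and Rbm24 (-0.05 and -0.25).

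The number of arrays and the missing time of the controls limit these results: differences near 0 can be members by sign alone, and signals of dim probe sets say little about expression.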
